A study of Rattus norvegicus with 16 samples.

Results

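Umod, Slc12a1, Kcnj1, Slc12a3, Calb1, Scnn1a, Aqp2 and Hsd11b2 are genes of the nephron from the thick ascending limb onwards, and here they were followed in glomerular preparations of rats with puromycin aminonucleoside (PAN) nephrosis. They were taken from the expression table by symbol, without regard to their values, and all 8 were found among its 13222 genes.

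Fluid filtered by the glomerulus runs through the proximal tubule, the thick ascending limb, the distal convoluted tubule and the collecting duct. The thick limb secretes uromodulin and takes up salt through the cotransporter NKCC2, which depends on potassium recycling by the channel ROMK. The distal convoluted tubule takes up salt through the cotransporter NCC and calcium with the help of calbindin. Principal cells of the collecting duct take up sodium through the channel ENaC under the control of aldosterone and water through aquaporin 2 under the control of vasopressin. None of these genes is known as a gene of the glomerulus itself, and sieved glomeruli can hold fragments of tubule.

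Poly(A) RNA was sequenced from glomeruli of male Wistar rats of about 175 g. PAN, which injures podocytes and causes nephrotic syndrome, was given intravenously, and pioglitazone, GQ-16 or a vehicle was given daily by gavage until glomeruli were sieved on day 11. The groups were Ctl (labelled healthy), PAN, PAN_Pio (PAN and pioglitazone, a PPARγ agonist) and PAN_GQ-16 (PAN and GQ-16, a further PPARγ ligand), each with 4 rats. The labels give no dose and do not say what the Ctl rats received. All rats shared strain and sex, so other strains and females were not covered. Replicate numbers below only name the rats of a group.

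Library totals ran from 13351137 to 21977663 reads in the listed genes. The labelled tissue was checked against 20 podocyte genes, which summed to between 3901 and 22062 CPM (reads scaled to a common library total) per library. The lowest sums were in Ctl 2 (3901 CPM) and Ctl 3 (3957 CPM). Group means were 7137.5 ± 4550 CPM (SD) in Ctl, 14477 ± 2021 in PAN, 12322 ± 4815 in PAN_Pio and 14556 ± 6740 in PAN_GQ-16. Tubule RNA was present in every library, since 30 proximal tubule genes summed to between 5479 and 21773 CPM. The share of reads from 13 mitochondrial genes was 25.9% ± 11.7 (SD) in Ctl, 9.07% ± 2.19 in PAN, 14% ± 4.47 in PAN_Pio and 16.1% ± 11.0 in PAN_GQ-16, and it was above 30% in Ctl 2, Ctl 3 and PAN_GQ-16 2. Sample titles carry a number whose meaning is not stated. It was 25 or higher in PAN 1, PAN 2, PAN 3, PAN_Pio 4 and PAN_GQ-16 4 and 15 or lower in the other libraries. Since 3 of the 4 PAN rats and no Ctl rat had a high number, the number largely coincides with PAN in that comparison, and values with it as a term stand beside the PAN result.

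The starts of a gene of each segment are shown to place the genes in the genome: Umod for the thick limb, Slc12a3 for the distal convoluted tubule, and Aqp2 for the principal cell, whose level followed the others least. The sequences are the 250 bases before the transcript start in RefSeq build GRCr8, 5′ to 3′ on the gene's strand, at chr1:183261017-183261266 (minus strand) for Umod, chr19:10675051-10675300 (minus strand) for Slc12a3 and chr7:132590036-132590285 (plus strand) for Aqp2. Capitals mark matches to 7 short motifs.
Umod: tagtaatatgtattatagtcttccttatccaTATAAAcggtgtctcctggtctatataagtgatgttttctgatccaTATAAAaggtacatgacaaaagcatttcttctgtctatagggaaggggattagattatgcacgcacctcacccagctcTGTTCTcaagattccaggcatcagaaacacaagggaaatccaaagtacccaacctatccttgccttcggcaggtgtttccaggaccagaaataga
Slc12a3: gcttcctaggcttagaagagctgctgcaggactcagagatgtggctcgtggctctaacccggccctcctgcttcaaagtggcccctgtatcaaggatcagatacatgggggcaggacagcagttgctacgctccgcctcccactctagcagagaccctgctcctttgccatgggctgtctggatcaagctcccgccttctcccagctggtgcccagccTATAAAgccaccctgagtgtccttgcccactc
Aqp2: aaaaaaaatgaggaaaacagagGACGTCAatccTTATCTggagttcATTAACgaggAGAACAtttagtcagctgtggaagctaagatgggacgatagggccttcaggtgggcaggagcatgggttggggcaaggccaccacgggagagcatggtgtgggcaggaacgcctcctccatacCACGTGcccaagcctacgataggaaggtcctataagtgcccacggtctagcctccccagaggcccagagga

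Of the 8 genes, 5 had an entry in the promoter table (Slc12a1 and Kcnj1 were the others). The motifs were searched on both strands, and matches did not overlap each other. Their letters, with the share of all 33469 promoter windows of the same length that held each, were TATAAA (a core promoter box, 12.9%), GACGTCA (cAMP response element core, 2.80%), CACGTG (E-box, 5.59%), AGAACA (steroid receptor core, 17.5%), GTTAAT (HNF1, 6.45%), TGAGTCA (AP-1, 4.05%) and AGATAA (for factors of the GATA family, 10.3%). The Slc12a3 window held TATAAA at 32 to 27 bases before the start. The Umod window held TATAAA at 219 to 214 and at 173 to 168 bases before the start, and TGTTCT, the reverse complement of AGAACA, at 95 to 90. The Aqp2 window held GACGTCA at 228 to 222 bases, TTATCT at 217 to 212, ATTAAC at 204 to 199, AGAACA at 194 to 189 and CACGTG at 71 to 66. A match describes the letters and not a bound factor.

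All 8 genes had their highest group mean in Ctl. After PAN, Umod and Kcnj1 of the thick limb, Slc12a3 and Calb1 of the distal convoluted tubule and the ENaC subunit Scnn1a were called lower, with Calb1 showing the largest change among the 8, while Slc12a1, Hsd11b2 and Aqp2 were not called. In PAN_Pio against Ctl, Aqp2 and Hsd11b2 were the genes called lower. A gene is called changed at a Benjamini-Hochberg adjusted p under 0.05 over 13222 genes in limma, changes are differences of log2(CPM + 1), and in bulk samples fewer cells of a type and less RNA per cell cannot be told apart.

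**Figure D1:**
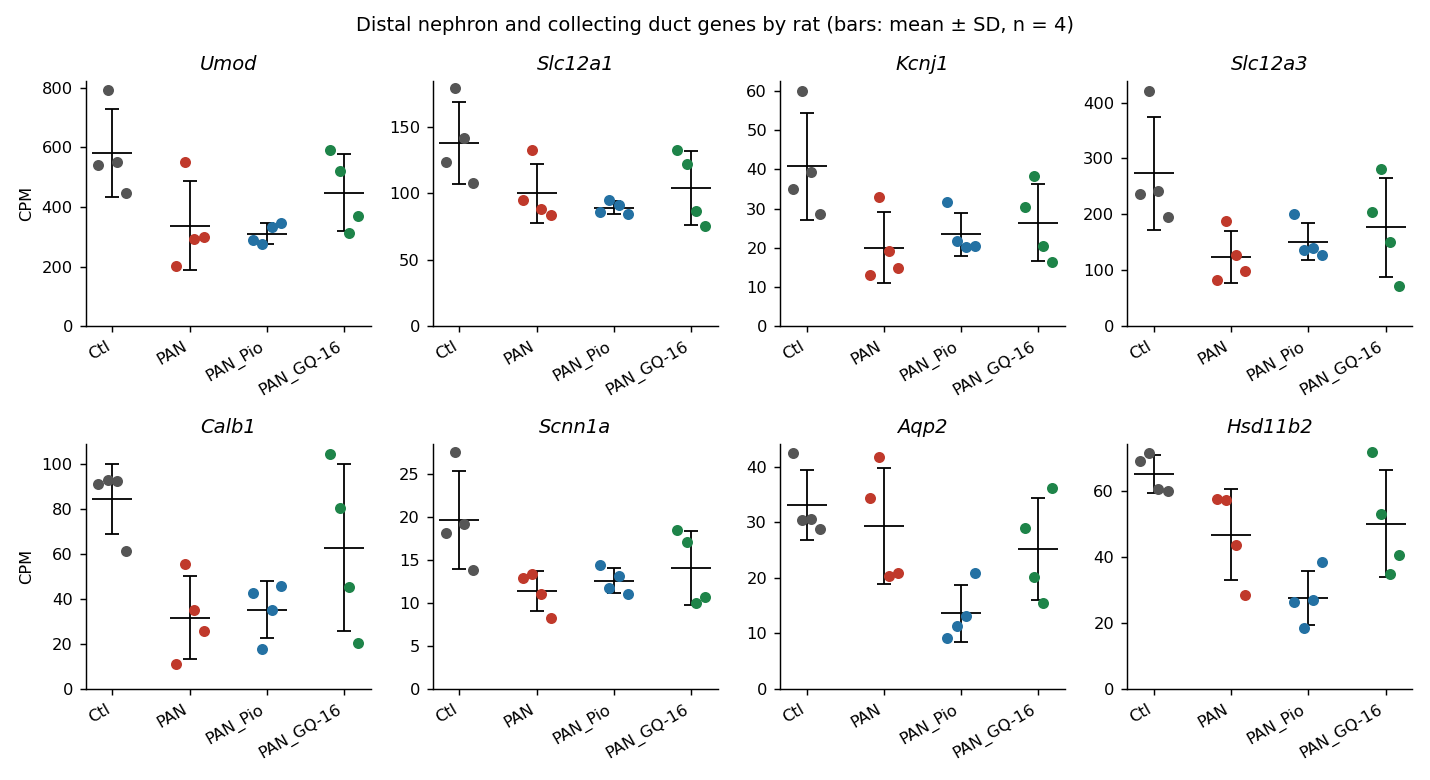
CPM of each gene (y axis) in each rat by group (x axis). Points are rats, horizontal lines are group means and bars are SD (n = 4). Calb1 lay between 11.0 and 55.3 CPM in the PAN rats and between 61.1 and 92.9 CPM in Ctl. Aqp2 was at 20.9 CPM or less in every PAN_Pio rat.

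Umod (ENSRNOG00000015557), which encodes uromodulin, the main protein of normal urine, was measured at 541, 792, 549 and 445 CPM in Ctl 1 to 4 and at 203, 550, 293 and 299.7 CPM in PAN 1 to 4. PAN 2 was within the Ctl range and the other PAN rats were below it. Umod was called lower in PAN, by a log2 change of -0.85 (SE 0.27, adjusted p = 0.0359). It lay at 289, 275, 332 and 347 CPM in PAN_Pio and at 592, 521, 311 and 368 CPM in PAN_GQ-16. All PAN_Pio rats were below Ctl and close together, whereas PAN_GQ-16 1 and 2 lay within the Ctl range.

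Slc12a1 (ENSRNOG00000005367), which encodes NKCC2, the target of loop diuretics, was at 123, 179, 141 and 108 CPM in Ctl and at 94.7, 133, 88.5 and 83.9 CPM in PAN. PAN 2 again lay among the Ctl rats, and the change of -0.46 (SE 0.20, adjusted p = 0.0908) was not called. PAN_Pio rats were between 84.8 and 95.3 CPM and PAN_GQ-16 rats between 75.1 and 133 CPM. The PAN_Pio rats spread least, with an SD of 4.94 CPM against 30.9 CPM in Ctl.

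Kcnj1 (ENSRNOG00000059005) encodes ROMK, which serves the thick limb and also potassium secretion by principal cells. It was at 35, 60.1, 39.4 and 28.5 CPM in Ctl and at 13.2, 33.0, 19.1 and 14.9 CPM in PAN. PAN 2 overlapped Ctl 4, and the change of -1.02 (SE 0.30, adjusted p = 0.0269) was called. Kcnj1 was at 31.6, 21.7, 20.2 and 20.4 CPM in PAN_Pio and at 30.4, 38.3, 20.5 and 16.4 CPM in PAN_GQ-16. One PAN_Pio rat and the first pair of PAN_GQ-16 rats were within the Ctl range.

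Slc12a3 (ENSRNOG00000057072) encodes NCC, the target of thiazide diuretics. It was at 236, 421, 241 and 195 CPM in Ctl and at 81.6, 189, 127 and 97.9 CPM in PAN. No PAN rat reached a Ctl rat, although PAN 2 and Ctl 4 were close, and the change of -1.15 (SE 0.36, adjusted p = 0.0343) was called. It was at 201, 136, 140 and 128 CPM in PAN_Pio and at 205, 282, 151 and 71.3 CPM in PAN_GQ-16, where PAN_GQ-16 4 was the lowest of all 16 rats.

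Calb1 (ENSRNOG00000007456) encodes calbindin, which buffers and carries calcium in the cytosol. It was at 91.1, 92.9, 92.4 and 61.1 CPM in Ctl and at 11.0, 55.3, 34.8 and 25.5 CPM in PAN. The groups did not overlap, and the change of -1.57 (SE 0.48, adjusted p = 0.0314) was the second lowest of all 13222 genes, a fold of 0.337. Calb1 was at 42.6, 17.5, 35 and 45.6 CPM in PAN_Pio, all below Ctl. In PAN_GQ-16 it was at 104, 80.6, 45.4 and 20.4 CPM, a spread from above every Ctl rat to within the PAN range.

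Scnn1a (ENSRNOG00000019368), the alpha subunit of ENaC, was at 18.1, 27.5, 19.1 and 13.8 CPM in Ctl and at 12.9, 13.4, 11.0 and 8.21 CPM in PAN. The groups did not overlap, by a narrow margin between Ctl 4 and PAN 2, and the change of -0.72 (SE 0.22, adjusted p = 0.0320) was called. PAN_Pio rats lay between 11.1 and 14.4 CPM and PAN_GQ-16 rats between 9.99 and 18.4 CPM.

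Aqp2 (ENSRNOG00000054378), the water channel that vasopressin moves to the apical membrane, was at 42.5, 30.4, 30.6 and 28.8 CPM in Ctl and at 34.3, 41.7, 20.4 and 20.9 CPM in PAN. The PAN rats lay on both sides of most Ctl rats, and the change of -0.22 (SE 0.29, 95% confidence interval -0.82 to 0.39, adjusted p = 0.567) was not called. In PAN_Pio it was at 9.12, 11.3, 13.1 and 20.9 CPM, below every Ctl rat. Against Ctl that was a called change of -1.26 (SE 0.29, adjusted p = 0.0240), a fold of 0.416. In PAN_GQ-16 it was at 28.9, 20.1, 15.4 and 36.2 CPM, which overlapped every other group.

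Hsd11b2 (ENSRNOG00000017084) encodes the enzyme that inactivates glucocorticoids and so keeps the mineralocorticoid receptor of principal cells responsive to aldosterone. It was at 68.9, 71.3, 60.5 and 60.0 CPM in Ctl and at 57.6, 57.2, 43.6 and 28.4 CPM in PAN. The PAN rats were all below Ctl, yet the change of -0.52 (SE 0.25, adjusted p = 0.125) was not called. In PAN_Pio it was at 26.3, 18.5, 26.8 and 38.5 CPM, and the change against Ctl of -1.25 (SE 0.25, adjusted p = 0.0158) was called. In PAN_GQ-16 it was at 71.6, 52.8, 34.8 and 40.7 CPM, from just above the Ctl range to below it.

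In PAN against Ctl, 5 of the 8 genes were called lower, beside 0.522% of all genes (22.3% were called in either direction). The groups did not overlap for 4 of the 8, beside 0.87% of all genes that were lower without overlap. The median change of the 8 was -0.79, against 0.28 for all genes. With median-ratio scaling, which sets the median of all genes to about 0, the 8 had a median of -1.08 and 4 stayed called. Slc12a3 was the gene lost (-1.45, adjusted p = 0.0546). The calls were close to the threshold and rested on single libraries: 0 of the 8 were called without Ctl 2, without Ctl 3 or without PAN 1, 2 without PAN 3 and 1 without PAN 4. A term for title numbers of 25 or higher also left 0 called, with changes from -0.37 for Slc12a1 to -1.31 for Calb1. With that term Aqp2 was at -0.76 (adjusted p = 0.168). Aqp2 was at 34.3, 41.7 and 20.4 CPM in the 3 PAN rats with high numbers and at 20.9 CPM in PAN 4. All 8 changes stayed negative under every alternative.

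**Figure D2:**
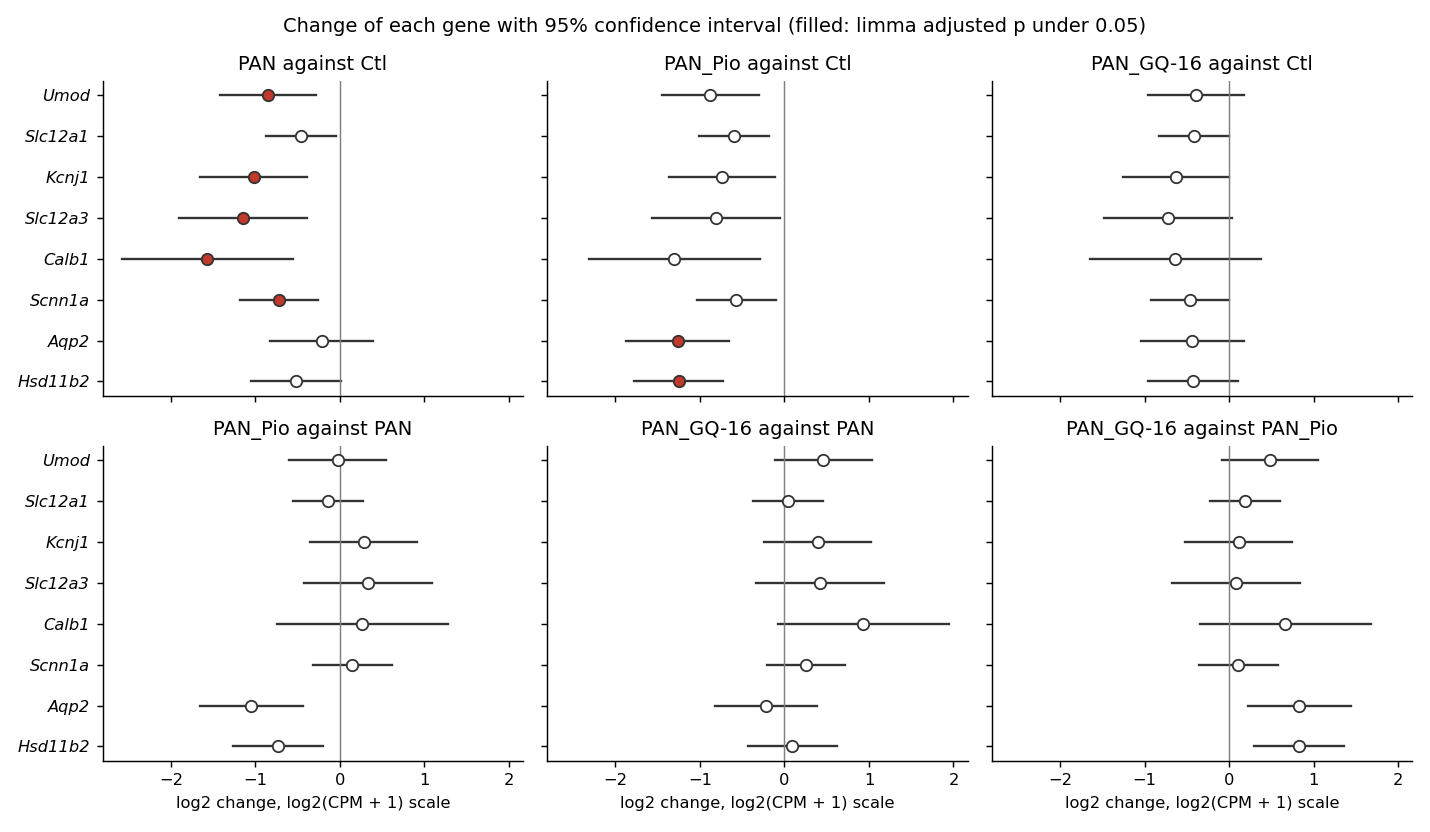
Change of each gene (x axis, log2(CPM + 1) scale) in 6 comparisons, with 95% confidence intervals from limma; filled points are called. In PAN against Ctl the change ran from -0.22 for Aqp2 to -1.57 for Calb1, and in PAN_Pio against Ctl only Aqp2 and Hsd11b2 were called.

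The share of mitochondrial reads and marker genes of other cell types differed in the same comparison. Over the 16 libraries, Pearson's r of log2(CPM + 1) with the mitochondrial share was 0.85 for Kcnj1 and Slc12a3, 0.82 for Scnn1a, 0.76 for Slc12a1, 0.68 for Umod and 0.65 for Calb1, but 0.36 for Hsd11b2 and 0.0085 for Aqp2. With the summed podocyte genes it ran from -0.78 for Slc12a3 to 0.074 for Aqp2. These values share library and depth. Without the 3 libraries above 30% mitochondrial reads 0 of the 8 were called in PAN against Ctl, with changes from -0.23 for Slc12a1 to -1.42 for Calb1. With mitochondrial reads taken out of the library totals 4 were called. For the mean of the proximal tubule genes, r with the 8 was between -0.12 and 0.23. With that mean as a covariate the same 5 genes were called, and 2 with median-ratio scaling added. Of 30 proximal genes limma called 0 in PAN, PAN_Pio or PAN_GQ-16 against Ctl, beside 22.3%, 4.98% and 0.151% of all genes. Their medians were -0.28, -0.60 and -0.39, while 1, 1 and 0 had an unadjusted limma p under 0.05. In PAN against Ctl, of 20 podocyte genes 5 were called higher (median 1.39), beside 21.7% of all genes called higher. Of 14 mesangial and smooth muscle genes 11 were called higher (median 1.35), of 16 leukocyte genes 7 (median 0.62), of 15 endothelial genes 3 (median -0.05) and of 4 striated muscle genes 3 (median 4.88). With median-ratio scaling 943 genes of the table were called higher and 198 lower, in place of 2874 and 69, and of these lists 3 podocyte genes, 10 mesangial and smooth muscle genes, 1 leukocyte gene, 2 endothelial genes and 3 striated muscle genes were called higher, and 1 leukocyte gene lower. That scaling gave, in PAN_Pio against Ctl, 295 higher and 83 lower, in place of 621 and 38. The part of these cell types in the result was not tested.

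In PAN_Pio against Ctl, 2 of the 8 genes were called lower, beside 0.287% of all genes (4.98% in either direction). The 8 changes ran from -0.57 for Scnn1a to -1.30 for Calb1, and each had an unadjusted limma p under 0.05, beside 2.64% of all genes that were lower at that level. For 5 genes (Umod, Slc12a1, Calb1, Aqp2 and Hsd11b2) no PAN_Pio rat overlapped Ctl, beside 1.06% of all genes. The Aqp2 and Hsd11b2 calls were kept within libraries numbered 15 or lower, at -1.48 (adjusted p = 0.00571) and -1.43 (adjusted p = 0.00684), and with median-ratio scaling, at -1.48 and -1.47. They were lost without Ctl 2, without Ctl 3 and without PAN_Pio 2, and Aqp2 was also lost without PAN_Pio 1 (adjusted p = 0.0545). Without the 3 libraries above 30% mitochondrial reads the changes were as large, -1.36 and -1.24, with adjusted p-values of 0.404 and 0.367.

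Against PAN itself, the effect of pioglitazone on these genes was called for 0 of 8, beside 0% of all genes (limma called 0 of 13222, and 3.74% had an unadjusted p under 0.05). Aqp2 was at -1.05 (95% confidence interval -1.66 to -0.44, unadjusted p = 0.00212, adjusted p = 0.916) and Hsd11b2 at -0.73 (interval -1.26 to -0.20, unadjusted p = 0.00984, adjusted p = 0.916). PAN_Pio 4 had as much Aqp2 as PAN 4, so even for Aqp2 the groups met, and 0 of the 8 were without overlap, beside 2.76% of all genes. The other 6 genes lay between -0.14 for Slc12a1 and 0.34 for Slc12a3. Voom weights on recovered reads called 0 of the 8 as well.

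In PAN_GQ-16 against Ctl, 0 of the 8 genes were called, beside 0.151% of all genes. All 8 changes were negative, from -0.39 for Umod to -0.72 for Slc12a3, with adjusted p-values between 0.209 and 0.399. Of the 8, 0 had an unadjusted p under 0.05, beside 2.03% of all genes that were lower at that level, and none was without overlap, beside 6.01% of all genes. The 4 rats split: PAN_GQ-16 1 had 0 of the 8 genes below the lowest Ctl rat, PAN_GQ-16 2 had 2, PAN_GQ-16 3 had 8 and PAN_GQ-16 4 had 7. In PAN the number was 7, 4, 8 and 8, and in PAN_Pio it was 5, 8, 8 and 8. The mitochondrial share of the PAN_GQ-16 rats differed too, at 18% and 30.9% in the first pair and at 9.0% and 6.63% in the second, and its part in the result was not tested.

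Against PAN, GQ-16 changed 0 of the 8 genes by the adjusted test, beside 0.0151% of all genes, and 0 had an unadjusted p under 0.05, beside 8.27%. Calb1 had the highest difference, 0.93 (95% confidence interval -0.08 to 1.94, adjusted p = 0.640). PAN_GQ-16 against PAN_Pio, for which the labels give no doses, also gave 0 of 8 calls, beside 0% of all genes (5.94% at an unadjusted p under 0.05). Aqp2 was 0.83 higher with GQ-16 (interval 0.22 to 1.44, unadjusted p = 0.0105, adjusted p = 0.724). Hsd11b2 was also 0.83 higher (interval 0.30 to 1.36, unadjusted p = 0.00445, adjusted p = 0.724). For the other 6 genes the difference ran from 0.086 for Slc12a3 to 0.66 for Calb1. The intervals of those 6 held 0 and also held differences of 0.57 or more.

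**Figure D3:**
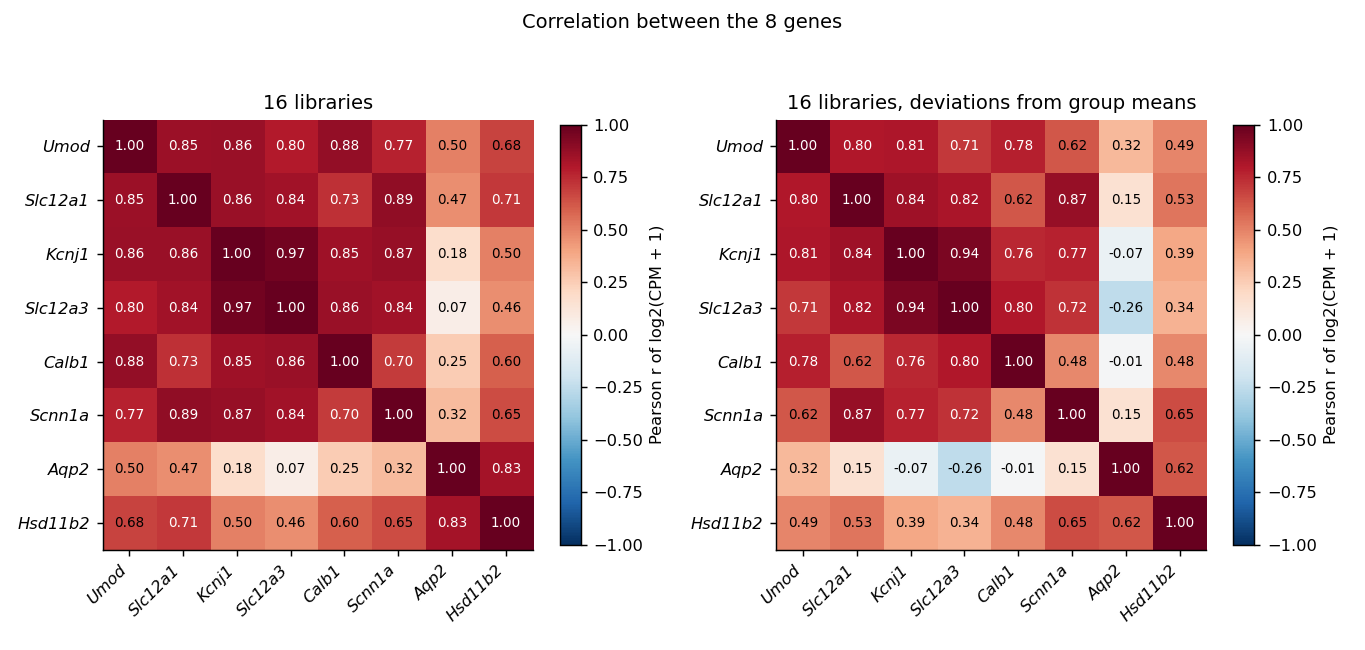
Pearson's r between the genes over 16 libraries (left) and after subtraction of group means (right); both axes list the genes and the colour scale runs from -1 to 1. The 6 genes from Umod to Scnn1a form a block with r of 0.70 or more on the left, and Aqp2 stands outside it.

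Across rats 6 of the genes varied together, Aqp2 varied apart from them, and Hsd11b2 lay between. Among Umod, Slc12a1, Kcnj1, Slc12a3, Calb1 and Scnn1a, r over 16 libraries was between 0.70 and 0.97 (median 0.85), and after subtraction of group means between 0.48 and 0.94. Kcnj1 and Slc12a3, genes of neighbouring segments, had the highest value at 0.97. Aqp2 had an r between 0.066 and 0.50 with those 6 (0.28 to 0.60 with median-ratio scaling), and Hsd11b2 one between 0.46 and 0.71 (0.63 to 0.78 with median-ratio scaling). Aqp2 and Hsd11b2 had an r of 0.83 with each other. After subtraction of group means it was 0.62, and that of Hsd11b2 with Scnn1a was 0.65. Scnn1a, a principal cell gene like Aqp2, had an r of 0.89 with Slc12a1 and of 0.32 with Aqp2. All these values share library totals, and no test is attached to them.

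Likeness to the genes of the table other than the 8, with provisional symbols such as those starting with LOC left out, was measured by the same r over 16 libraries, as a description. Umod was closest to Atp6v0d2 (r = 0.91), Atp6v1b1 (0.91) and Bsnd (0.90), Slc12a1 to Foxi1 (0.94), and Scnn1a to Cldn16 (0.92). Atp6v0d2 and Atp6v1b1 are proton pump subunits and Foxi1 a transcription factor of intercalated cells, Bsnd is the chloride channel subunit barttin, and Cldn16 is a tight junction protein of the thick limb. Kcnj1 and Slc12a3 shared Tmem52b (both 0.97) and Sgpp2 among their closest genes outside the 8, and Calb1 was closest to Defb1 (0.93). Aqp2 was closest to Scnn1b (0.89), Kcnt1 (0.84) and Rhcg (0.82), and Hsd11b2 had an r of 0.92 with Scnn1b and of 0.89 with Scnn1g. Scnn1b and Scnn1g are the beta and gamma subunits of ENaC, whose alpha subunit is Scnn1a.

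Ratios between members of 1 library do not depend on its total, and 7 were compared by exact two-sided permutation over the 70 assignments of 8 rats, whose smallest possible p is 0.0286. In PAN against Ctl the log2 ratio of Slc12a3 to Slc12a1 was 0.26 ± 0.34 against 0.95 ± 0.20 (SD), a difference of -0.69 with no overlap between the groups (exact p = 0.0286, adjusted over 7 ratios 0.1). That of Kcnj1 to Slc12a1 was -2.39 ± 0.36 against -1.79 ± 0.15, a difference of -0.60 with no overlap (exact p = 0.0286, adjusted 0.1). The adjusted values of no ratio passed 0.05 in any of 5 comparisons. Since ratios at the smallest possible p still had an adjusted value of 0.1, this test could hardly reach that threshold. In PAN_Pio against PAN the ratio of Scnn1a to Aqp2 differed by 1.27 and that of Hsd11b2 to Slc12a3 by -1.09 (both exact p = 0.0571, adjusted 0.133). Aqp2 to Hsd11b2 differed by -0.044 between PAN_Pio and Ctl (exact p = 0.886), with group SDs of 0.35 and 0.22.

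**Figure D4:**
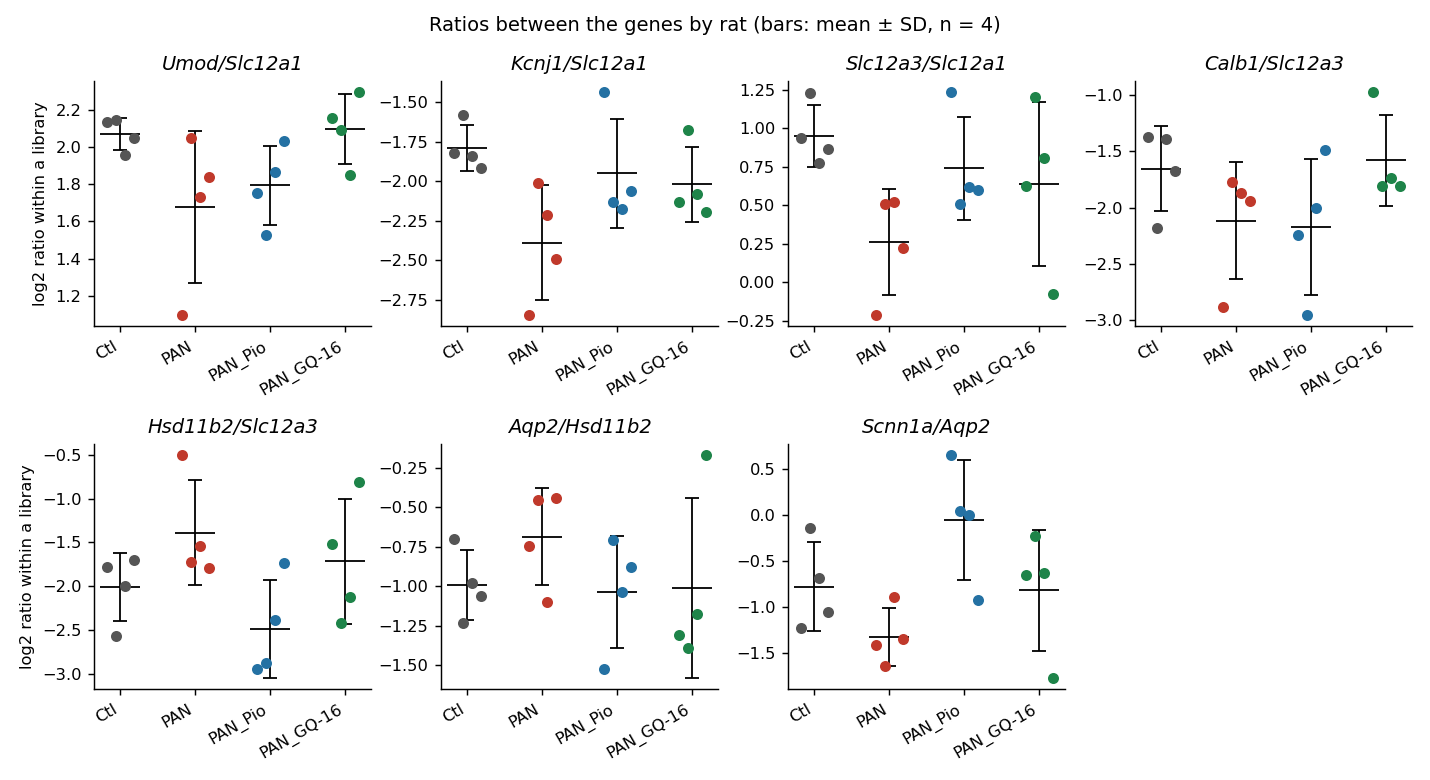
Log2 ratio of 2 genes within each library (y axis) by group (x axis) for 7 pairs; points are rats, lines means and bars SD (n = 4). The ratio of Slc12a3 to Slc12a1 lay between -0.21 and 0.52 in PAN and between 0.77 and 1.23 in Ctl.

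The wider segments were read from lists of known genes, which include the members. Of 21 thick limb genes 8 were called lower and 0 higher in PAN against Ctl (median -0.52), beside 0.522% and 21.7% of all genes. Among those called lower were Casr, the calcium sensing receptor (-1.25, adjusted p = 0.0223), Bsnd (-1.06, adjusted p = 0.0101) and the membrane protein gene Tmem72 (-1.04, adjusted p = 0.0434, or 0.0659 with median-ratio scaling). Of 15 distal convoluted tubule genes only the members Slc12a3 and Calb1 were called, both lower (median -0.55), beside the same shares of all genes, and with median-ratio scaling Slc12a3 was not (adjusted p = 0.0546). The abundant genes Fxyd2, a sodium pump subunit (-0.56, adjusted p = 0.214), Atp2b1, a calcium pump (0.16, adjusted p = 0.420), and Kl, which encodes Klotho (-0.55, adjusted p = 0.288), were not. In PAN_Pio against Ctl 1 thick limb gene and 0 distal convoluted tubule genes were called lower and 0 higher, beside 0.287% and 4.7% of all genes. The medians of these lists were -0.60 and -0.50.

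Of 24 connecting tubule and principal cell genes, 3 were called lower and 1 higher in PAN against Ctl (median -0.22), beside 0.522% and 21.7% of all genes. The counts in PAN_Pio against Ctl were 7 lower and 1 higher (median -0.67), beside 0.287% and 4.7% of all genes. The gene called higher was Gata3, a transcription factor also known from mesangial cells (1.08 in PAN and 1.12 in PAN_Pio). Tfap2b, a transcription factor of the distal tubule, was called lower in both (-0.81 and -1.0). Scnn1b was at 7.86 ± 0.75 CPM in Ctl, 7.87 ± 2.23 in PAN and 4.02 ± 1.61 in PAN_Pio (SD), with changes of -0.03 (adjusted p = 0.924) and -0.87 (adjusted p = 0.0446) against Ctl. Scnn1g, chosen after its values were seen, was at -0.23 (adjusted p = 0.498) and -1.16 (adjusted p = 0.0244). Aqp2, Hsd11b2, Scnn1b and Scnn1g were thus called in PAN_Pio and not in PAN. The difference between PAN_Pio and PAN was called for none of them. Scnn1b was named because it was called, and both Scnn1b and Scnn1g were among the genes of highest r with Hsd11b2. Their calls are therefore no separate support. Scnn1g was low, at 2.23 CPM in PAN_Pio. Kcnj1 and Scnn1a of the same list were called in PAN and not in PAN_Pio.

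Of 24 genes of the aldosterone pathway, 2 were called lower (Kcnj1 and Scnn1a) and 2 higher in PAN against Ctl (median -0.06), beside 0.522% and 21.7% of all genes. Those called higher were Usp2, a deubiquitinating enzyme that acts on ENaC (1.44, adjusted p = 0.0353, or 0.10 with median-ratio scaling), and Cnksr3, a scaffold for ENaC regulation (1.19, adjusted p = 0.00247). In PAN_Pio against Ctl 3 were called lower and 2 higher (median -0.12), beside 0.287% and 4.7% of all genes. With GQ-16 against Ctl, 0 genes of the thick limb, distal convoluted tubule, principal cell or aldosterone lists were called by limma, beside 0.151% of all genes. The medians were -0.39, -0.44, -0.41 and -0.10. Neither drug changed a gene of these lists against PAN by the adjusted test, beside 0% of all genes for pioglitazone and 0.0151% for GQ-16.

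**Figure D5:**
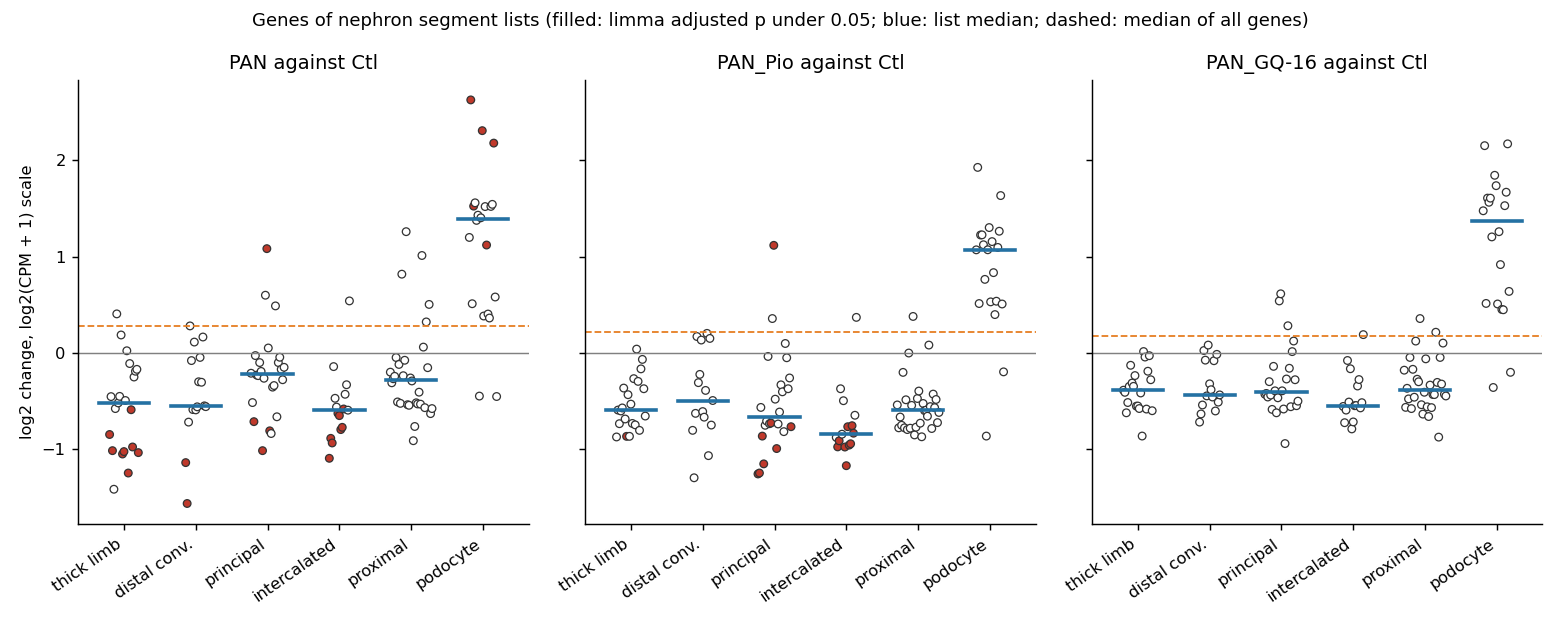
Change of the genes of 6 lists (x axis) against Ctl on the log2(CPM + 1) scale (y axis) for PAN, PAN_Pio and PAN_GQ-16; filled points are called, blue bars are list medians and dashed lines the median of all genes. The lists of the distal nephron had medians below 0 in the 3 comparisons. So did the proximal tubule list, at -0.28, -0.60 and -0.39, while the podocyte list had medians of 1.39, 1.07 and 1.37.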

How the data were processed

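The expression table holds log2 CPM values deposited by the authors for 13222 genes in 16 libraries. Reads were aligned with HISAT2 to Rnor_6.0, counted with featureCounts from Subread and handled with limma, per the submitters' processing notes, and the annotation is not given in the sources used here. CPM was taken as 2 to the power of the deposited log2 value. Whole reads were recovered for 100% of the values (tolerance 0.05 read). No gene of the table stays under 2.50 CPM in all libraries, so the table starts after a filter on low values, and all 8 members are in it. Counting error at these depths was small beside the spread between rats, and the reads carry no molecular identifiers.

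One limma 3.58.1 model (R 4.3.3) with 4 group means and a trend of variance on level was fitted to log2(CPM + 1) of all 16 libraries, with Benjamini-Hochberg adjustment over 13222 genes and a threshold of 0.05. The log2(CPM + 1) scale understates changes of low genes. Stated p-values measure the spread between these samples, which the labels list as replicates without saying more on how they were kept apart. No 2 libraries of a group agreed within sampling noise (chi-square per gene of 13.3 or more). The procedure was tested on simulated data. Ratios of members were compared by exact permutation (SciPy 1.17.1).

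The members and the lists of thick limb, distal convoluted tubule, principal cell, intercalated cell, aldosterone pathway, proximal tubule, podocyte, mesangial and smooth muscle, endothelial, leukocyte and striated muscle genes were chosen with earlier results of these data known, and no set test was run. Non-members are named by rule: from each distal list the 3 called genes with the largest change (mean of at least 5 CPM), filled with the most abundant ones, and for each member the 3 genes of highest r. One gene that the rule names is not reported here. Alternatives were median-ratio scaling, totals without mitochondrial genes, a pseudocount of 0.1 CPM, a mean of at least 10 CPM, a fit to the groups compared, the proximal tubule mean or a title number of 25 or higher as a term, libraries numbered 15 or lower, voom weights on recovered reads, and each rat left out. Voom without further scaling, both covariates with median-ratio scaling, and leaving out the 3 libraries above 30% mitochondrial reads were chosen after seeing the data.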

Additional observations from a re-analysis of the deposited data

Results flagged for a closer look

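Within-group values were examined for a rat standing far from the other 3 of its group, over 60 groups of 4 values. The gap to the nearest rat exceeded Dixon's 95% critical share of the group's range in 7 of them, where chance alone gives about 3 (1 in 20). Calb1 was low in Ctl 4, at 5.93 log2 CPM against 6.51 to 6.54 in the other Ctl rats. Aqp2 was high in Ctl 1, at 5.41 log2 CPM against 4.85 to 4.94. PAN 1 had a low log2 ratio of Calb1 to Slc12a3, -2.89 against -1.94 to -1.77. PAN_Pio 1 accounted for 3 of the 7: Kcnj1 was at 4.98 log2 CPM against 4.34 to 4.44, its log2 ratio to Slc12a1 was -1.44 against -2.17 to -2.06, and the log2 ratio of Slc12a3 to Slc12a1 was 1.23 against 0.51 to 0.62. PAN_GQ-16 1 had a high log2 ratio of Calb1 to Slc12a3, -0.97 against -1.81 to -1.73.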

How the results depend on the processing

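The direction of all 8 genes against Ctl was kept in all alternatives run, but the number called was not. In PAN against Ctl (5 called) it was 3 with a fit to the groups compared, 0 with the term for title numbers of 25 or higher, alone or with median-ratio scaling, 2 with voom and median-ratio scaling, 2 with median-ratio scaling and the proximal tubule covariate, 0 without the 3 libraries above 30% mitochondrial reads, and 0 to 6 with single rats left out. In PAN_Pio against Ctl (2 called) it was 4 with a fit to the groups compared, 0 without those 3 libraries and 0 to 3 with single rats left out. With median-ratio scaling, calls in the lists changed in PAN against Ctl to 1 distal convoluted tubule gene lower (from 2), 4 principal cell genes lower (from 3), and 3 aldosterone pathway genes lower (from 2) and 1 higher (from 2). In PAN_Pio against Ctl they changed to 1 distal convoluted tubule gene lower (from 0), 5 intercalated cell genes lower (from 9), and 4 aldosterone pathway genes lower (from 3) and 1 higher (from 2).

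Signs turned only for differences that were not called. For PAN_Pio against PAN, Umod was at 0.057 with median-ratio scaling, 0.056 with totals without mitochondrial genes, 0.044 with voom and median-ratio scaling and 0.089 with median-ratio scaling and the proximal covariate. For PAN_GQ-16 against PAN, Slc12a1 was at -0.016 with the number term and -0.045 without the 3 libraries, and Aqp2 at 0.14 with the number term, or 0.21 with median-ratio scaling added (main value -0.22). For PAN_GQ-16 against PAN_Pio without the 3 libraries, Kcnj1 was at -0.085 and Slc12a3 at -0.19. Among libraries numbered 15 or lower, log2 ratios of PAN_GQ-16 against Ctl were -0.041 for Umod to Slc12a1, -0.0073 for Hsd11b2 to Slc12a3 and 0.27 for Scnn1a to Aqp2.

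With single rats left out, ranges crossed 0 for PAN_Pio against PAN in Umod (-0.24 to 0.24), Slc12a1 (-0.22 to 0.0039) and Calb1 (-0.14 to 0.60), for PAN_GQ-16 against PAN in Slc12a1 (-0.085 to 0.19) and Hsd11b2 (-0.12 to 0.25), and for PAN_GQ-16 against PAN_Pio in Kcnj1 (-0.085 to 0.31), Slc12a3 (-0.19 to 0.46) and Scnn1a (-0.030 to 0.24). Ratio ranges that crossed 0 were Aqp2 to Hsd11b2 (-0.15 to 0.12) for PAN_Pio against Ctl, and for PAN_GQ-16 against Ctl Umod to Slc12a1 (-0.041 to 0.11), Calb1 to Slc12a3 (-0.13 to 0.17), Hsd11b2 to Slc12a3 (-0.0073 to 0.53), Aqp2 to Hsd11b2 (-0.30 to 0.11) and Scnn1a to Aqp2 (-0.24 to 0.27). For PAN_Pio against PAN they were Umod to Slc12a1 (-0.077 to 0.24) and Calb1 to Slc12a3 (-0.31 to 0.20). The cause was not tested in any of these. No paired analysis was possible because the labels give no replicate numbers shared between groups. Comparisons with PAN were not run among libraries numbered 15 or lower, where PAN keeps 1 rat.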

Other observations

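Intercalated cells secrete acid or base in the collecting duct. Of 15 intercalated cell genes in the table, 8 were called lower and 0 higher in PAN against Ctl (median log2 change -0.60), beside 0.522% of all genes called lower, and 9 lower and 0 higher in PAN_Pio against Ctl (median -0.85), beside 0.287%, by limma. With median-ratio scaling the counts called lower were 8 and 5. Atp6v1b1, a proton pump subunit, was at 48.8 ± 6.84 CPM in Ctl (SD, n = 4), 23.2 ± 8.34 in PAN, 25.9 ± 2.48 in PAN_Pio and 35 ± 15.3 in PAN_GQ-16, with a called change of -1.10 (SE 0.27) in PAN and one of -0.88 in PAN_Pio that was not called (adjusted p = 0.0689). Slc4a9, an anion exchanger, was at 26.4 ± 3.99, 16.5 ± 3.15, 11.2 ± 1.99 and 16 ± 4.76 CPM in the same order, with called changes of -0.66 in PAN and -1.18 in PAN_Pio. Slc26a4, which encodes pendrin, was at 21.7 ± 1.83, 13.8 ± 2.64, 10.6 ± 2.14 and 12.5 ± 4.45 CPM, with called changes of -0.63 and -0.98. No PAN or PAN_Pio rat overlapped Ctl for these 3 genes, which were named for their large called changes. Of all genes, 0.87% in PAN and 1.06% in PAN_Pio were lower without overlap. For Slc4a9 and Slc26a4 no PAN_GQ-16 rat overlapped Ctl either, beside 6.01% of all genes without overlap in either direction. Under GQ-16 0 of the 15 were called against Ctl (median -0.55), beside 0.151% of all genes. Neither drug differed from PAN by the adjusted test, beside 0% of all genes for pioglitazone and 0.0151% for GQ-16.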
